A study of Mus musculus with 405 samples.

Results

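The strobilurin fungicides (azoxystrobin, fluoxastrobin, pyraclostrobin and trifloxystrobin, 4 in all) and 3 other fungicides that inhibit mitochondrial complex III (famoxadone, fenamidone and cyazofamid) were compared in cultured mouse cortical cells. These 7 chemicals were selected by name from a screen of 297 chemicals, and they account for 10 of its 393 RNA sequencing libraries. Azoxystrobin, famoxadone and fenamidone had 2 libraries each, the other chemicals had 1 each, and 49 vehicle libraries served as controls. All cultures, controls included, were hybrid C57BL/6J x CAST/EiJ cells from embryonic day 15 cortex. All cultures also received an antimitotic before exposure, were treated on day 7 in vitro for 24 h, and gave polyadenylated RNA. The labels call the cells cortical neurons, but the cultures were mixed: neuronal, astrocyte and microglial markers were all measured. The doses were those the labels call non-cytotoxic. Azoxystrobin and pyraclostrobin were used at 0.1 µM and fluoxastrobin at 1 µM. Trifloxystrobin, famoxadone, fenamidone and cyazofamid were used at 10 µM. Pyraclostrobin was also sequenced in a separate count experiment with 4 libraries per group. The labels do not say whether libraries of 1 group came from separate cultures, so the p-values measure the spread between libraries, which may be partly technical. In the screen, each chemical with 1 library was assumed to vary like the vehicles and the chemicals with 2 libraries. Its standard errors and p-values therefore hold no spread of its own.

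Complex III (the cytochrome bc1 complex) passes electrons from ubiquinol to cytochrome c in the inner mitochondrial membrane and pumps protons while doing so. Inhibitors bind either at the Qo site, where ubiquinol is oxidised, or at the Qi site, where ubiquinone is reduced. A block can slow ATP synthesis and release superoxide from the complex, and neurons depend strongly on respiration. Strobilurins bind the Qo site and share a pharmacophore derived from a natural fungal methoxyacrylate. Azoxystrobin keeps the methoxyacrylate, trifloxystrobin carries an oximinoacetate, pyraclostrobin a methoxycarbamate and fluoxastrobin a dihydrodioxazine. Famoxadone, an oxazolidinedione, and fenamidone, an imidazolinone, bind the Qo site without being strobilurins. Cyazofamid is a cyanoimidazole that binds the Qi site.

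The values of the screen are deviations of expression from the median of each gene, given here on a log2 scale, so they allow comparison of libraries but not of levels between genes. The depth behind each screen library is unknown. In the count experiment the library totals ran from 2409623 to 7833440 reads on genes. Pyraclostrobin libraries had 2409623 to 2550437 reads, and vehicle libraries 1 and 2 had 2893598 and 2778615. Vehicle libraries 3 and 4 had 7833440 and 7082405. Depth therefore went partly with treatment, and its part in the calls was not tested. Library 1 of pyraclostrobin in the counts is the library of the screen, and both library 1 samples stood apart from the other 6. Summed astrocyte markers were 4435.1 CPM (reads on a gene scaled to a common library total) in pyraclostrobin library 1 against 1306.7 to 1511.3 in libraries 2 to 4, and 1472.9 in vehicle library 1 against 736.7 to 767.1 in the others. Results from counts are therefore given with all 8 libraries and with the 6 that do not share the number of the screen's pyraclostrobin library. These 6 are called outside the screen below. For vehicle libraries the name rests on the number alone, since no label says whether a count vehicle is also a screen vehicle.

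The 7 chemicals divided by the number of genes that differed from vehicle. Fenamidone changed 2109 of 13304 genes (619 higher, 1490 lower; 15.9% of genes), famoxadone 1532 (414 higher, 1118 lower; 11.5%), trifloxystrobin 1250 (266 higher, 984 lower; 9.4%) and pyraclostrobin 1224 (230 higher, 994 lower; 9.2%), by limma with a Benjamini-Hochberg adjusted p under 0.05. Azoxystrobin, cyazofamid and fluoxastrobin changed 0 genes each (0%) by limma, with 529, 204 and 433 genes at an unadjusted p under 0.05. The smallest adjusted p by limma was 0.097 for azoxystrobin, 0.0895 for cyazofamid and 0.0747 for fluoxastrobin. Genes called lower outnumbered genes called higher in each of the 4 responding chemicals. These 4 are called responding below from their own counts of genes, as a description.

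The numbers of called genes depended on libraries and on precision. Famoxadone changed 105 genes without its library 2 and 928 without its library 1, and fenamidone changed 560 without its library 2. The median width of the 95% interval of a gene's log2 difference was 0.723 for chemicals with 2 libraries and 1.01 for those with 1, so the absence of calls for cyazofamid and fluoxastrobin does not exclude moderate changes. When every library of the screen was fitted together, fenamidone ranked 2nd, famoxadone 3rd, pyraclostrobin 5th and trifloxystrobin 6th of 297 chemicals by genes changed (2138, 1542, 1202 and 1169). Fluoxastrobin, with 12 genes, stood at the median chemical's count of 12, and cyazofamid and azoxystrobin had 1 and 0.

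**Figure D1:**
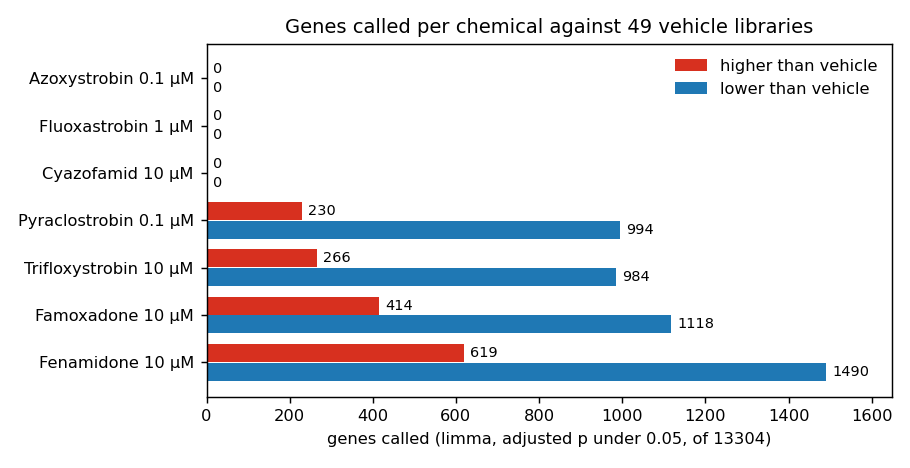
Number of genes with adjusted p under 0.05 against 49 vehicle libraries (limma, 13304 genes), split into higher and lower, for each of the 7 complex III inhibitors with its dose. The longest bars are the 1490 genes lower with fenamidone and the 1118 lower with famoxadone, and azoxystrobin, cyazofamid and fluoxastrobin have none.

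Genes for smooth-muscle actin and its partners were among the largest rises in all 4 responding chemicals. Acta2 (mm9 chr19:34315580-34329826, minus strand), which encodes smooth-muscle actin, lay between -2.76 and 0.93 in the 49 vehicle libraries, with a median of -0.06. It stood at 2.99 in pyraclostrobin, 2.04 in trifloxystrobin, 1.95 and 2.92 in famoxadone, and 1.95 and 1.7 in fenamidone, each above every vehicle library. The azoxystrobin libraries gave 0.11 and -0.29, cyazofamid -0.04 and fluoxastrobin 0.46, all inside the vehicle range. Against vehicle, Acta2 rose by 3.06 ± 0.62 (SE) with pyraclostrobin, 2.10 ± 0.62 with trifloxystrobin, 2.50 ± 0.45 with famoxadone and 1.89 ± 0.45 with fenamidone (limma adjusted p = 0.000422, 0.0201, 6.39e-05 and 0.0014). Without famoxadone library 2 the Acta2 difference was 2.02 and missed the threshold (limma adjusted p = 0.113). With either fenamidone library alone the Acta2 difference stayed near this size but missed the threshold (limma adjusted p = 0.0593 and 0.0522).

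The contractile and actin-binding list followed Acta2. Of its 16 measured genes, 13 rose with famoxadone, 14 with fenamidone, 13 with pyraclostrobin and 12 with trifloxystrobin, and none fell. Over all genes, 3.11%, 4.65%, 1.73% and 2% were called higher in these comparisons. Tagln, an actin-binding protein of smooth muscle, rose by 1.99, 1.72, 2.52 and 1.88 in the same order. The list's median difference was 0.86, 0.92, 1.12 and 1.18 in the responding chemicals, against 0.03 for azoxystrobin, 0.12 for fluoxastrobin and -0.04 for cyazofamid. For famoxadone 3 of the 16 genes were called without its library 2, and for fenamidone 9 were without its library 2.

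Matrix genes and targets of the mechanosensitive coactivators YAP and TAZ rose as well. Of 18 collagen and matrix genes, 10 rose with famoxadone, 11 with fenamidone, 8 with pyraclostrobin and 7 with trifloxystrobin. Among all genes 3.11%, 4.65%, 1.73% and 2% were called higher in this order. Thbs1, a matrix glycoprotein, rose by 1.51, 1.33, 1.64 and 1.62 in that order. Of 8 YAP and TAZ targets, 6, 7, 6 and 6 rose, with Cyr61 at 0.96, 0.92, 1.46 and 1.43. Without famoxadone library 2, 1 matrix gene and 0 YAP and TAZ targets were called, and without fenamidone library 2, 5 and 1 were. Gpnmb, a lysosomal and membrane glycoprotein, rose by 2.25, 1.80, 1.44 and 1.85, and Lgals3, a galectin, rose by 2.48 with famoxadone, 2.41 with fenamidone and 3.22 with pyraclostrobin.

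Serum response factor controls many contractile genes through the CArG box, so the promoters of the contractile list are shown where they hold one. RefSeq promoters (build GRCm38.p6, 250 bases before to 50 bases after the start) were at hand for 15 of the 17 listed genes. Of these 15 genes, 5 (33.3%) held the motif on either strand of a promoter, against 488 of 27025 genes with a promoter (1.81%). Capitals mark the match, and each sequence is written 5′ to 3′ on the strand of the gene.
Cnn2 (calponin 2, chr10:79988534-79988563, plus strand): cgcttccacgCCTTATAAGGacatttgctc
Lima1 (an actin cross-linker, chr15:99820177-99820206, minus strand): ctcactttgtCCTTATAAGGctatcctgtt
Myl9 (myosin regulatory light chain, chr2:156775293-156775322, plus strand): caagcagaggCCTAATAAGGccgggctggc
Vcl (vinculin, chr14:20929161-20929190, plus strand): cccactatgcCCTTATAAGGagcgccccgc
Srf (the factor itself, chr17:46556205-46556234, minus strand): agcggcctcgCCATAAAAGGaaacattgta
Srf (a second match, chr17:46556225-46556254, minus strand): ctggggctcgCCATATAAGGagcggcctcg
The match began 56 bases before the start of Cnn2, 47 before Lima1, 161 before Myl9, 227 before Vcl, and 62 and 82 before Srf. Cnn2, Lima1 and Vcl rose with all 4 responding chemicals and Myl9 with 3 of them, while Srf was not called in the screen. Acta2 had no match in this window. A match describes the letters of the promoter and is no evidence of binding in these cells.

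**Figure D2:**
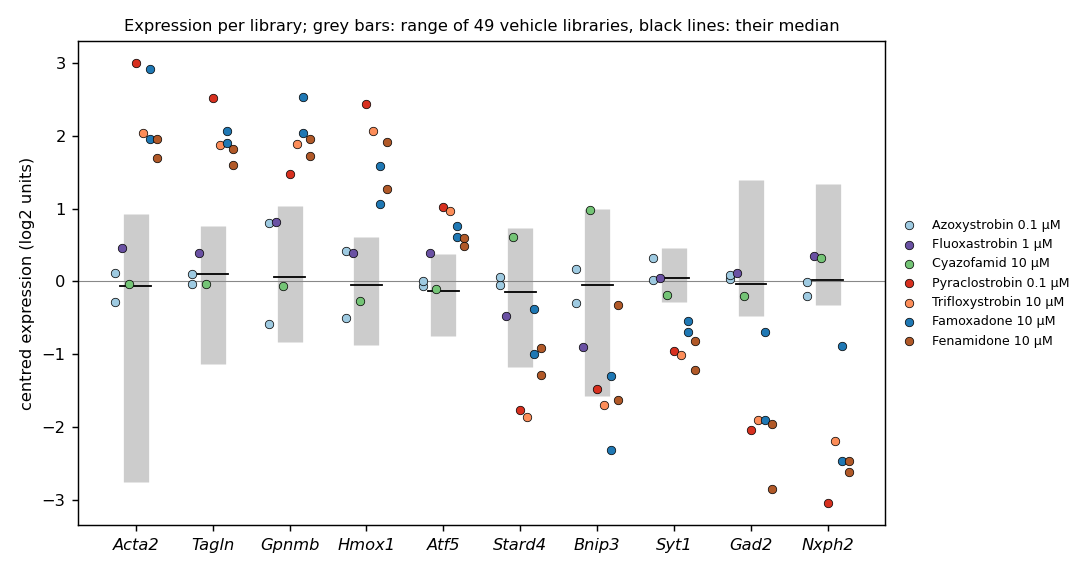
Log2 expression relative to the median of each gene for 10 genes in each library of the 7 chemicals, with the range of the 49 vehicle libraries as a grey bar. The libraries of pyraclostrobin, trifloxystrobin, famoxadone and fenamidone lie above the grey bar for Acta2, Tagln, Gpnmb, Hmox1 and Atf5 and below it for Syt1, Gad2 and Nxph2, and those of azoxystrobin, cyazofamid and fluoxastrobin lie in or near the bar.

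Oxidative stress genes rose in the responding chemicals, led by Hmox1. Hmox1 (mm9 chr8:77617490-77624495, plus strand) encodes haem oxygenase 1, an inducible target of the transcription factor NRF2. It lay between -0.87 and 0.61 in the vehicle libraries, with a median of -0.04. It was 2.44 in pyraclostrobin, 2.07 in trifloxystrobin, 1.06 and 1.58 in famoxadone, and 1.27 and 1.91 in fenamidone. These 6 libraries lay above all vehicle libraries, whereas azoxystrobin (0.41 and -0.50), cyazofamid (-0.27) and fluoxastrobin (0.39) lay among them. The rises were 2.50 ± 0.33, 2.13 ± 0.33, 1.38 ± 0.24 and 1.66 ± 0.24 in the order pyraclostrobin, trifloxystrobin, famoxadone and fenamidone (limma adjusted p = 4.42e-07, 7.2e-06, 3.02e-05 and 4.01e-07). Without famoxadone library 2 the Hmox1 difference was 1.12 and missed the threshold (limma adjusted p = 0.0889).

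The wider NRF2 list rose only in part. Of 27 measured genes, 5 rose with famoxadone, 8 with fenamidone, 5 with pyraclostrobin and 3 with trifloxystrobin, and none fell. Among all genes 3.11%, 4.65%, 1.73% and 2% were called higher in these comparisons. Srxn1, which encodes sulfiredoxin, and Txnrd1, which encodes thioredoxin reductase, were called with all 4. No gene of the list was called without famoxadone library 2, and without fenamidone library 2 the 2 called genes were Hmox1 and Srxn1. The core of the antioxidant response element, TGACNNNGC on either strand, was present for 9 of 22 list genes with a promoter (40.9%). Of all 27025 genes with a promoter, 3781 (14%) held it. No promoter of Hmox1 was at hand. The matches in Srxn1 and Txnrd1 are shown with the core in capitals, and both lie on the strand opposite the gene.
Srxn1 (chr2:152105542-152105570, build GRCm38.p6, plus strand): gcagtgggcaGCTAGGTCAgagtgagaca
Txnrd1 (chr10:82859104-82859132, build GRCm38.p6, plus strand): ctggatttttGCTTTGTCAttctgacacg

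Genes of the integrated stress response, in which ATF4 drives amino acid synthesis and transport, also rose. Of 33 genes, 9 rose with famoxadone, 5 with fenamidone, 6 with pyraclostrobin and 9 with trifloxystrobin, where 3.11%, 4.65%, 1.73% and 2% of all genes rose. Atf5, a transcription factor of the mitochondrial unfolded protein response, was between -0.75 and 0.37 in vehicle libraries. It was 1.02 in pyraclostrobin, 0.96 in trifloxystrobin, 0.61 and 0.77 in famoxadone and 0.59 and 0.49 in fenamidone, each above the vehicle range, and 0.39 in fluoxastrobin, just above it. Against vehicle it rose by 1.16 ± 0.22, 1.10 ± 0.22, 0.83 ± 0.16 and 0.68 ± 0.16 (limma adjusted p = 0.000208, 0.000409, 0.000198 and 0.00137). Psat1, of serine synthesis, rose by 0.70, 0.52, 0.61 and 0.43 in the same order. Gdf15, a secreted stress signal, rose by 1.79 with pyraclostrobin, 1.85 with trifloxystrobin and 1.41 with fenamidone, and the famoxadone difference of 1.19 was not called. No ATF4 target of the list was called without famoxadone library 2, and 1 was called with either fenamidone library alone.

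Targets of p53 moved in the same direction. Of 17 genes, 6 rose with famoxadone, 7 with fenamidone, 2 with pyraclostrobin and 3 with trifloxystrobin, and none fell. The shares of all genes called higher were 3.11%, 4.65%, 1.73% and 2%. Ccng1, a cyclin induced by p53, rose by 0.56, 0.62, 0.64 and 0.61. Cdkn1a, an inhibitor of cyclin-dependent kinases, was called with famoxadone and fenamidone. Without famoxadone library 2 or without fenamidone library 2, 0 of the 17 targets were called, and without famoxadone library 1, 1 was.

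Cholesterol synthesis genes fell in all 4 responding chemicals, in differing numbers. Of 19 genes, 16 fell with trifloxystrobin, 12 with pyraclostrobin, 7 with fenamidone and 2 with famoxadone, against 7.4%, 7.47%, 11.2% and 8.4% of all genes called lower. Stard4, a sterol carrier, lay between -1.18 and 0.74 in vehicle libraries. It was -1.86 with trifloxystrobin, -1.76 with pyraclostrobin, -1.28 and -0.91 with fenamidone and -0.38 and -1.0 with famoxadone. Only the first 3 of these libraries lay below the vehicle range. It fell by log2 differences of -1.70 ± 0.39, -1.60 ± 0.39 and -0.93 ± 0.28 with trifloxystrobin, pyraclostrobin and fenamidone (limma adjusted p = 0.00193, 0.00353 and 0.0135), and the famoxadone difference of -0.53 ± 0.28 was not called (limma adjusted p = 0.25). Mvk, mevalonate kinase, fell with trifloxystrobin (-2.13) and pyraclostrobin (-1.04). Without fenamidone library 1, 0 genes of the list were called. Without famoxadone library 1 and library 2, 1 and 0 were.

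Neuronal transcripts were lower in the 4 responding chemicals. Of 23 synaptic vesicle and release genes, 17 fell with famoxadone, 21 with fenamidone, 20 with pyraclostrobin and 19 with trifloxystrobin, and none rose. Among all genes 8.4%, 11.2%, 7.47% and 7.4% were called lower in these comparisons. Syt1 (mm9 chr10:107934706-108448038, minus strand), the calcium sensor of vesicle release, ranged from -0.28 to 0.46 in vehicle libraries. It was -0.96 in pyraclostrobin, -1.01 in trifloxystrobin, -0.54 and -0.70 in famoxadone, and -0.82 and -1.22 in fenamidone, all below the vehicle range. In azoxystrobin (0.02 and 0.32), cyazofamid (-0.19) and fluoxastrobin (0.05) it lay inside that range. Syt1 fell by log2 differences of -1.01 ± 0.17, -1.06 ± 0.17, -0.66 ± 0.12 and -1.07 ± 0.12 with pyraclostrobin, trifloxystrobin, famoxadone and fenamidone (limma adjusted p = 3.3e-05, 1.56e-05, 0.000117 and 4.74e-09). Syn1, a vesicle phosphoprotein, fell with all 4, at -0.97, -1.01, -0.86 and -0.82. For famoxadone 3 of the 23 genes were called without its library 2.

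Genes for adhesion molecules, receptors and channels fell too. Nxph2 (mm9 chr2:23176766-23257493, plus strand) encodes a neurexophilin, a secreted ligand of alpha-neurexins. It lay between -0.32 and 1.33 in vehicle libraries and at -3.04 in pyraclostrobin, -2.18 in trifloxystrobin, -0.88 and -2.46 in famoxadone, and -2.61 and -2.47 in fenamidone. It fell by log2 differences of -3.15 ± 0.36, -2.30 ± 0.36, -1.78 ± 0.25 and -2.65 ± 0.25 in that order (limma adjusted p = 2.26e-08, 6.96e-06, 1.25e-06 and 3.45e-11). Of 16 neurexins, neuroligins, contactins and their ligands, 7 or 8 fell with each responding chemical, Nrxn3 among them with differences of -1.4, -1.27, -0.63 and -1.18 in the same order. Of 14 ionotropic glutamate receptor genes 3 fell with famoxadone, 6 with fenamidone, 5 with pyraclostrobin and 4 with trifloxystrobin, and the kainate receptor genes Grik1 and Grik3 were called in all 4. Of 12 GABA-A receptor genes 2, 7, 4 and 4 fell. Of 25 potassium channel genes 8, 15, 10 and 12 fell, with Kcna1 at -0.87, -1.45, -1.66 and -1.49. The shares of all genes called lower were 8.4%, 11.2%, 7.47% and 7.4% in this order. The famoxadone counts of glutamate and GABA-A receptor genes, 3 and 2, are not read as a fall of receptors. With library 1 of famoxadone alone these 4 groups kept 1, 1, 0 and 2 called genes, in the order neurexins, glutamate receptors, GABA-A receptors and potassium channels. With library 1 of fenamidone alone they kept 6, 2, 2 and 6.

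Tubulin genes divided. Of 12 measured, 7 fell with each of the 4 responding chemicals, including the neuronal Tubb3 (-0.59 with famoxadone, -0.59 with fenamidone, -0.64 with pyraclostrobin and -0.79 with trifloxystrobin). Tubb6 alone rose, by 0.85, 0.94, 1.07 and 0.90 in the same order. Without famoxadone library 2, 2 tubulins were called, both lower, and with either fenamidone library alone 3 or 4 were called lower. Of 22 immediate early and activity-dependent genes 1, 4, 2 and 4 fell, against 8.4%, 11.2%, 7.47% and 7.4% of all genes, and Bdnf rose with trifloxystrobin. Egr3 was called lower with all 4 but lost its call when any library of famoxadone or fenamidone was left out.

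Cell type markers moved with these groups. In bulk RNA, fewer cells of a type and less RNA per cell cannot be told apart. All 12 general neuron markers fell with famoxadone, 10 with fenamidone, 9 with pyraclostrobin and 10 with trifloxystrobin. The shares of all genes called lower were 8.4%, 11.2%, 7.47% and 7.4% in this order. The median of the 12 lay between -0.331 and -0.587 in the 6 responding libraries and between -0.138 and 0.167 in vehicle libraries. Rbfox3, the nuclear marker NeuN, fell with differences of -0.61, -0.70, -0.75 and -0.97. Of 10 markers of GABAergic interneurons, which release the inhibitory transmitter GABA, 4, 7, 7 and 6 fell. Gad2, a GABA-synthesising enzyme, fell with differences of -1.32, -2.43, -2.07 and -1.93, and its lowest value was -2.86 in fenamidone library 2 where vehicle libraries lay between -0.48 and 1.4. For famoxadone, 0 general and 0 GABAergic markers were called without its library 2. For fenamidone, the paper counted stained neurons, astrocytes and microglia under its sequencing conditions and reported no significant change. Those counts are of stained cells, not RNA, and cover fenamidone only. The part of cell composition in the falls of synaptic genes was not tested here.

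Glial markers differed between the chemicals and between libraries. Of 9 astrocyte markers, 6 rose with fenamidone, 2 with famoxadone, 1 with pyraclostrobin and 0 with trifloxystrobin. Of 6 microglial markers, 3 rose with fenamidone, 1 with famoxadone, 0 with pyraclostrobin and 1 with trifloxystrobin. The shares of all genes called higher were 4.65%, 3.11%, 1.73% and 2% in this order. Both fenamidone counts rested on its library 2, without which 0 astrocyte and 0 microglial markers were called. C1qb, a complement gene of microglia, was 2.16 in fenamidone library 2 and 0.62 in library 1. None of 4 endothelial and mural markers was called. Of 7 oligodendrocyte lineage markers, Cspg4 rose with famoxadone, and Olig1 and Olig2 rose and Mog fell with fenamidone. None of these 7 markers was called for either chemical without its library 2, and the 2 astrocyte calls of famoxadone were lost without either of its libraries.

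**Figure D3:**
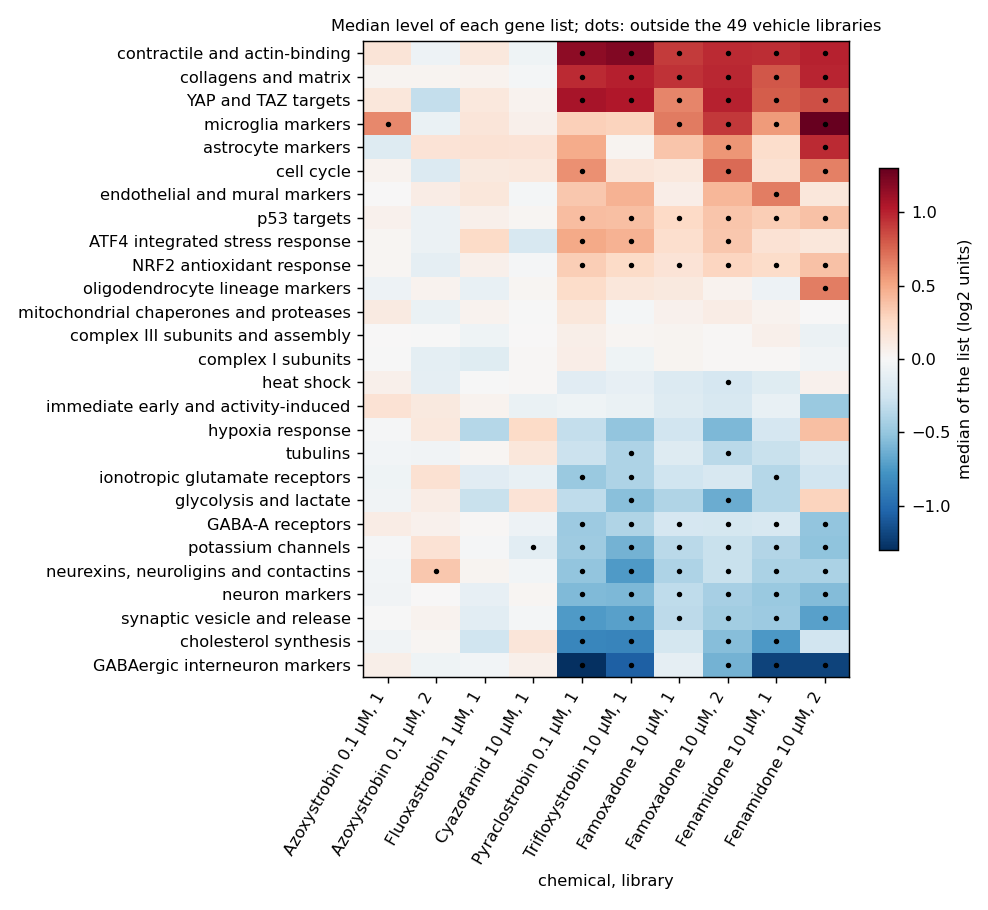
Median log2 expression, relative to the median of each gene, of the listed genes in each of the 10 libraries (colour scale), with a dot where the median lies outside the range of the 49 vehicle libraries. The 6 libraries of pyraclostrobin, trifloxystrobin, famoxadone and fenamidone show high contractile genes (0.914 to 1.2, vehicle range -0.511 to 0.342) and low neuron markers (-0.331 to -0.587), and the 4 libraries of the other chemicals do not. Dots in those 4 mark potassium channels in cyazofamid (-0.14, lowest vehicle -0.115) and microglia markers in azoxystrobin library 1 (0.626, highest vehicle 0.532). Neurexins, neuroligins and contactins have a dot in azoxystrobin library 2 (0.348, highest vehicle 0.272).

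The genes of complex III itself did not pass the test. None of 14 subunit and assembly genes of complex III and none of 37 complex I genes was called for any of the 7 chemicals in the screen. Hspa9, a mitochondrial chaperone, rose with famoxadone and pyraclostrobin, as the one called gene of 10 mitochondrial chaperones and proteases. Glycolytic genes were lower with famoxadone, where 9 of 22 fell and 1 rose, and with trifloxystrobin, where 4 fell. Among all genes 8.4% with famoxadone, 7.4% with trifloxystrobin and 7.47% with pyraclostrobin were called lower. Those called higher were 3.11% with famoxadone, 1.73% with pyraclostrobin and 4.65% with fenamidone. Pyraclostrobin lowered 1 and raised 1, and fenamidone raised 2, which lost their calls without its library 2. Slc16a1, a lactate transporter, was the gene that rose with famoxadone, and it also rose with fenamidone and pyraclostrobin. Ldha, lactate dehydrogenase A, fell by 0.97 with famoxadone, and was -0.69 and 0.21 in the fenamidone libraries. No glycolytic gene was called without famoxadone library 2, and 5 were without library 1, all lower.

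Bnip3 (mm9 chr7:146082519-146101202, minus strand), a mitophagy receptor induced by hypoxia, was lower with 3 of the chemicals. It lay between -1.57 and 0.99 in vehicle libraries, a wide range. It was -1.48 in pyraclostrobin, -1.70 in trifloxystrobin, -1.3 and -2.31 in famoxadone, -1.63 and -0.33 in fenamidone, -0.89 in fluoxastrobin, -0.30 and 0.17 in azoxystrobin, and 0.98 in cyazofamid. The difference was -1.42 ± 0.48, -1.64 ± 0.48 and -1.75 ± 0.34 with pyraclostrobin, trifloxystrobin and famoxadone (limma adjusted p = 0.0479, 0.0177 and 0.000218). The differences of -0.93 with fenamidone, -0.84 with fluoxastrobin (95% interval -1.8 to 0.12) and 1.03 with cyazofamid (0.07 to 1.99) were not called. Trifloxystrobin, famoxadone library 2 and fenamidone library 1 were the libraries below the vehicle range. Of 12 hypoxia genes, 2 fell with famoxadone, 2 with pyraclostrobin and 1 with trifloxystrobin, and none rose. Over all genes 8.4%, 7.47% and 7.4% were called lower in these comparisons, so these counts are not read as a fall of the list. Of 11 heat shock genes 6 fell with famoxadone, among them the cytosolic chaperones Hsp90aa1 and Hspa8. No hypoxia or heat shock gene was called without famoxadone library 2.

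Each responding chemical also had steep changes in single genes. Tac1, the precursor of substance P, fell by 4.13 ± 0.65 with pyraclostrobin and stood at -4.32 in its library (limma adjusted p = 7.19e-06). It also fell with fenamidone (-1.53), and was not called with the other 2. Gpr6, a receptor of striatal neurons, fell with pyraclostrobin (-4.06), trifloxystrobin (-3.44) and fenamidone (-2.30). Gpr52, an orphan receptor, fell by 3.84 ± 0.52 with trifloxystrobin (limma adjusted p = 7.51e-07), which stood at -3.85 while the 9 other libraries were between -0.80 and 0.02. Tmsb15b1, a beta-thymosin, was -4.55 and -4.49 in the famoxadone libraries and fell by 4.49 ± 0.81 (limma adjusted p = 8.3e-05), although vehicle libraries of this gene ranged widely, from -2.88 to 2.31. With fenamidone the largest falls included Tmem210 (-3.77), Hspb3, a small heat shock protein (-3.03), and Nxph1 (-2.52). Slc7a3, a cationic amino acid transporter, rose by 2.11 with trifloxystrobin and 1.75 with famoxadone.

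Chemicals at the same dose were compared directly as 7 pairs, with p-values adjusted over all genes and all pairs by limma. At 0.1 µM the methoxyacrylate azoxystrobin and the methoxycarbamate pyraclostrobin differed in 467 genes (3.51% of genes), 405 higher (3.04%) and 62 lower (0.466%) in azoxystrobin. Acta2 was lower in azoxystrobin by a log2 difference of -3.08 (95% interval -4.60 to -1.57, limma adjusted p = 0.0202), and Hmox1 by -2.48 (-3.29 to -1.68, limma adjusted p = 0.00022). Syt1 was higher by 1.14 (0.72 to 1.56). Of 23 synaptic vesicle genes 16 were higher in azoxystrobin, of 10 GABAergic markers 5, of 19 cholesterol genes 5, and of 16 contractile genes 7 were lower. The number of genes was 174 without azoxystrobin library 2, and Acta2 then missed the threshold (limma adjusted p = 0.12).

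At 10 µM the Qi-site cyanoimidazole cyazofamid differed from each of the 3 Qo-site chemicals. It differed from fenamidone in 266 genes (245 higher, 21 lower in cyazofamid; 2%, 1.84% and 0.158% of genes), from trifloxystrobin in 263 (240 higher, 23 lower; 1.98%, 1.8% and 0.173%) and from famoxadone in 144 (132 higher, 12 lower; 1.08%, 0.992% and 0.0902%). Hmox1 was lower in cyazofamid by -1.86, -2.34 and -1.59 in these comparisons, and called in each. Synaptic vesicle genes were higher in cyazofamid, 13 of 23 against fenamidone, 11 against trifloxystrobin and 4 against famoxadone. Bnip3 was higher by 2.78 against famoxadone (95% interval 1.62 to 3.95, limma adjusted p = 0.0044), and Nxph2 by 2.86 against fenamidone (limma adjusted p = 0.00012). Of the 3 tubulins higher against famoxadone, Tuba4a, Tubb3 and Tubb4a, all were also higher against fenamidone and trifloxystrobin. The cyazofamid library is a single one, and without famoxadone library 2 or fenamidone library 2 the pairs with cyazofamid had 24 and 84 genes.

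The 3 responding 10 µM chemicals differed from each other in few genes. Famoxadone and fenamidone, both of the Qo site but of unlike ring systems, differed in 28 genes (21 higher, 7 lower in famoxadone; 0.21%, 0.158% and 0.0526% of genes). Famoxadone had the higher value for the interneuron genes Lhx6 (by 1.02) and Slc32a1, the vesicular GABA transporter (by 0.88), for Nxph1 (by 1.31), for Grik3 (by 0.93) and for the proteoglycan Spock3 (by 1.69). Famoxadone and the strobilurin trifloxystrobin differed in 24 genes, all higher in famoxadone (0.18%), with Gpr52 (by 3.25), Kctd8, an auxiliary subunit of GABA-B receptors (by 2.44), and Mvk (by 1.73). Fenamidone and trifloxystrobin differed in 7 genes (6 higher, 1 lower in fenamidone; 0.0526%, 0.0451% and 0.00752%), with Gpr52 (by 3.29), Kctd8 (by 2.43) and Mvk (by 1.67) again higher. The first of these counts was 6 without fenamidone library 2 and 83 without fenamidone library 1, the second 12 without famoxadone library 2 and 43 without famoxadone library 1, and the third 18 without fenamidone library 1.

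A difference that was not called leaves room for one. For Acta2 the interval was -0.63 to 1.85 for famoxadone minus fenamidone, -1.12 to 1.92 for famoxadone minus trifloxystrobin and -1.73 to 1.31 for fenamidone minus trifloxystrobin. For Hmox1 these intervals were -0.93 to 0.38, -1.55 to 0.06 and -1.28 to 0.33.

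Fluoxastrobin had no match in dose, so its values stand beside the others without a comparison. Its differences from vehicle were 0.53 for Acta2 (95% interval -0.72 to 1.78), 0.45 for Hmox1 (-0.21 to 1.12), 1.43 for Slc7a3 (0.20 to 2.66) and 1.06 for Chac1, an ATF4 target that degrades glutathione (0.22 to 1.90), and none was called. The median of its ATF4 list was 0.37, above the medians of 0.28 with fenamidone and below those of 0.42 to 0.60 with the other 3 responding chemicals. In the library itself the list median was 0.246, inside the vehicle range of -0.406 to 0.292, as were those of both fenamidone libraries and famoxadone library 1. For azoxystrobin the intervals were narrower. They ran from -0.92 to 0.87 for Acta2, from -0.45 to 0.50 for Hmox1 and from -0.12 to 0.38 for Syt1. For cyazofamid they ran from -1.22 to 1.28 for Acta2 and from -0.87 to 0.46 for Hmox1.

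Libraries were also compared over the 5121 variably expressed genes, as a description. Spearman's rho across these genes was 0.509 to 0.665 among the 6 libraries of the responding chemicals, including 0.544 for the fenamidone pair and 0.509 for the famoxadone pair. The fluoxastrobin library gave 0.202 to 0.268 with these 6, and at most 0.105 with any vehicle library. The highest value of each of these 6 with a vehicle library was 0.166 to 0.263, a range that overlaps the fluoxastrobin values. The azoxystrobin pair gave 0.01. Genes are not independent replicates, and all libraries share the centring and batch correction of the screen.

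The count experiment gave genes chosen without the screen's pyraclostrobin library. Whether its vehicle libraries are among those of the screen is not given by the labels. With pyraclostrobin, 3082 genes of the screen table were higher and 3083 lower in the 6 libraries called outside the screen. The median of the higher genes minus that of the lower genes was 0.636 in the pyraclostrobin library of the screen, 0.611 in trifloxystrobin, 0.476 and 0.696 in fenamidone and 0.400 and 0.544 in famoxadone. Vehicle libraries lay between -0.235 and 0.188. Fluoxastrobin gave 0.147, azoxystrobin 0.0389 and -0.0926, and cyazofamid -0.00048, all inside the vehicle range. Among 297 chemicals pyraclostrobin, trifloxystrobin, fenamidone and famoxadone ranked 2nd to 5th, fluoxastrobin 18th, cyazofamid 163rd and azoxystrobin 208th. The 1st was fenpyroximate, a complex I inhibitor, at 0.643.

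**Figure D4:**
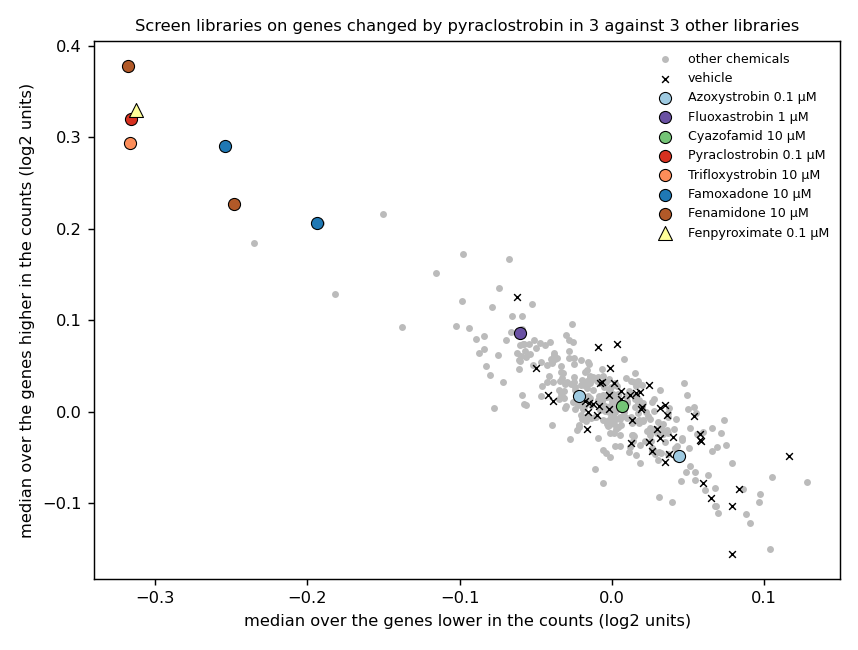
Median log2 expression of the 3083 genes lower (x axis) and the 3082 genes higher (y axis) with pyraclostrobin in count libraries outside the screen, for each screen library. Vehicle libraries and most other chemicals lie near 0 on both axes, and the 6 libraries of pyraclostrobin, trifloxystrobin, famoxadone and fenamidone lie at the upper left beside fenpyroximate.

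In the count experiment itself, pyraclostrobin changed 4301 of 12324 genes (2277 higher, 2024 lower; 34.9%) by edgeR with 4 libraries per group. With the 3 libraries per group called outside the screen it changed 6246 of 12441 (3149 higher, 3097 lower, 50.2%). Of the 230 genes called higher in the screen's pyraclostrobin library, 228 (99.1%) were called higher in these 6 libraries, and of the 977 tested genes called lower, 921 (94.3%) were called lower and 2 higher, where 25.1% of 12278 genes were called higher and 25.1% lower. The median log2 difference there was 2.09 for the first set and -0.72 for the second.

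Acta2 reached 781, 623, 774 and 571 CPM in pyraclostrobin libraries 1 to 4 and 80.2, 31.9, 29.4 and 34.5 CPM in vehicle libraries. The groups did not overlap, and Acta2 rose by 3.99 ± 0.31 on the log2 scale (edgeR adjusted p = 1.1e-05). Hmox1 was at 715, 194, 271 and 171 CPM against 40.7, 16.7, 16 and 14.6 CPM and also rose by 3.99. Its highest values in both groups were those of library 1, and without these the rise was 3.77. Palld, an actin cross-linker, and Flnc, filamin C, rose by 3.94 and 3.72. All 16 contractile genes, 16 of 17 matrix genes and all 8 YAP and TAZ targets were called higher, in both sets of libraries.

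Nxph2 stood at 1.96, 13.2, 9.51 and 8.29 CPM against 33.5, 70.1, 60.2 and 62.7 CPM and fell by 2.78. Syt1 was at 355, 473, 403 and 537 CPM against 787, 1398, 1341 and 1322 CPM and fell by 1.46, without overlap of the groups. Grik1 fell by 2.62 and Nxph1 fell by 2.44. Bnip3 was at 39.3, 18.8, 19 and 23.3 CPM against 237, 72.8, 84.6 and 51.9 CPM and fell by 2.14. Hkdc1, a hexokinase-like gene, was at 0, 7.51, 0 and 0 CPM against 26 to 32.7 CPM. Mvd, of the mevalonate pathway, fell by 2.30 as 1 of 19 cholesterol genes, all of which were lower. The 19 also fell in the 6 libraries outside the screen.

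**Figure D5:**
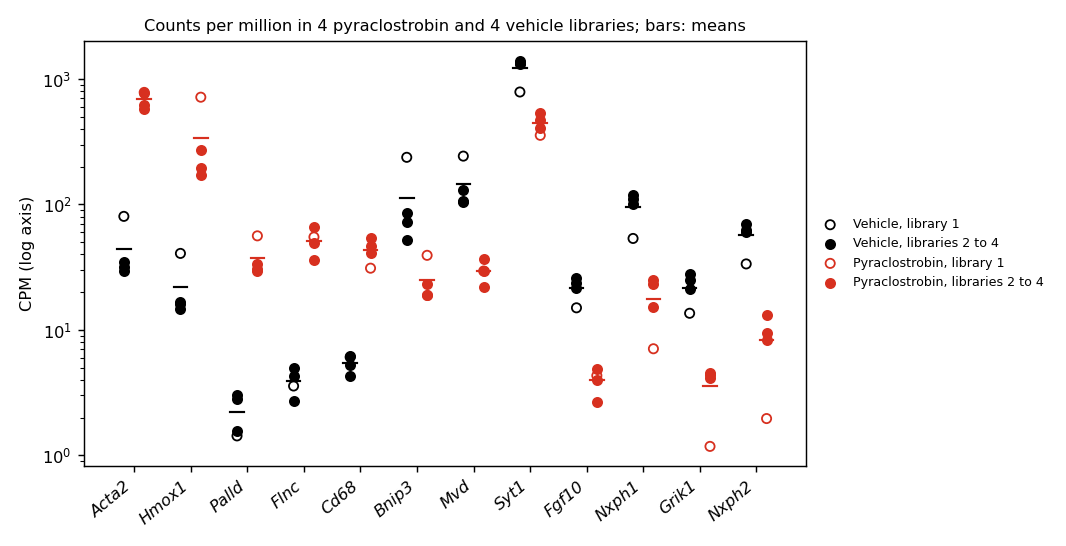
CPM on a log axis for genes of the count experiment in each pyraclostrobin and vehicle library, with open symbols for library 1 and bars for group means. Acta2 and Hmox1 are higher and Nxph2, Syt1 and Bnip3 lower in every pyraclostrobin library than in every vehicle library.

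More genes of the stress lists were called in the counts than in the screen, as was so for all genes, of which 18.5% were called higher with 4 libraries per group and 25.3% with 3, against 1.73% in the screen. With 4 libraries per group 14 of 27 NRF2 genes, 21 of 33 ATF4 genes and 12 of 17 p53 targets rose. With 3 per group 18 of 26, 26 of 33 and 14 of 17 rose, and Wars, a tRNA synthetase, was the 1 gene of these lists that fell. Cell cycle genes, none of which was called in the screen, rose in 11 of 14 cases with 4 libraries per group and in 13 of 13 with 3, among them Cdk1 and Top2a. Immediate early genes differed from the screen: 8 of 20 rose and Egr3 fell with 4 libraries per group, and 13 rose and 2 fell with 3, Fos and Fosb among the rises. Nptx2, an activity-dependent pentraxin, was called lower in the screen library and higher in the 3 libraries outside it.

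The complex III assembly genes Lyrm7 and Ttc19 fell, with log2 differences of -0.52 (edgeR adjusted p = 0.0275) and -0.51 (edgeR adjusted p = 0.0085), of 13 complex III genes tested, where 16.4% of all genes were called lower. In the 6 libraries outside the screen both fell again, and the subunit genes Uqcrh, Uqcr10, Uqcrc1 and Cyc1 rose. Over all genes 25.3% were called higher and 24.9% lower there, so these calls are not read as a change of complex III. Of 34 complex I genes 7 rose and 1 fell there, against 25.3% and 24.9% of all genes, while 0 of 33 were called with all 8 libraries.

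Summed neuron markers were 15028.5 to 15994.6 CPM in vehicle and 7776.7 to 9778.0 CPM in pyraclostrobin libraries, and all 12 markers fell. Microglial markers summed to 35 to 49.8 CPM in vehicle and 144.8 to 251.4 CPM in pyraclostrobin libraries. All 9 tested microglial markers rose, with Cd68, a lysosomal protein of phagocytes, higher by 2.96. GABAergic markers summed to 690.8 to 1290.4 CPM and 151.9 to 815.5 CPM, groups that overlapped through vehicle library 1, and 4 of 10 fell, or 7 without both library 1 samples. Gfap, the intermediate filament of astrocytes, was at 640, 60.1, 93.6 and 82.2 CPM against 151, 21, 29.1 and 21.9 CPM. Its difference of 2.01 was not called with all libraries (edgeR adjusted p = 0.0897), and it rose by 1.68 without the library 1 samples (edgeR adjusted p = 8.9e-08). Oligodendrocyte lineage markers summed to 111.6 to 219.8 CPM and 229.0 to 361.1 CPM, with Mag at 0 in all libraries and Sox10 at 0 in pyraclostrobin, and endothelial and mural markers to 14 to 26.3 CPM and 31.8 to 45.7 CPM, with Cldn5 at 0. The part of these cell types in the other changes was not tested.

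Complex I inhibitors act on the step that feeds electrons into the same chain, and 2 of them shared the 0.1 µM dose of pyraclostrobin. Pyraclostrobin differed from fenpyroximate in 0 genes (0%) and from pyridaben in 0 genes (0%) by limma, with 186 and 462 genes at an unadjusted p under 0.05 and a smallest adjusted p of 0.376. These are comparisons of single libraries with a median 95% interval width of 1.39, so sizeable differences may have gone undetected. On the pyraclostrobin gene scale above, fenpyroximate gave 0.643, pyridaben 0.231, rotenone (0.01 µM) 0.367 and 0.234, and tebufenpyrad (0.01 µM) 0.0204. The last lay inside the vehicle range, the other 4 libraries above it.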

How the data were processed

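Cortical cultures were exposed to single chemicals, and polyadenylated RNA was sequenced. For the screen the authors filtered reads, aligned them to mm9 with TopHat (versions not given in the sources used here), removed ribosomal reads, computed RPKM over RefSeq genes, and deposited log10 values after quantile normalisation, centring and removal of culture and sequencing batch. The authors deposited raw counts over RefSeq exons for pyraclostrobin. In the screen table, depth and batch can therefore no longer be examined. TruSeq libraries were used, and whether counting used strand is not given in the sources used here, so overlapping antisense genes cannot be told apart.

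Samples were grouped by their labels. Members and gene lists were chosen with earlier results of these data known. Screen values were converted to log2 and fitted with limma 3.58.1 (R 4.3.3) with a mean trend on 49 vehicle and 10 member libraries. A chemical with 1 library was assumed to vary like vehicles and the chemicals with 2 libraries. The 7 matched-dose pairs were adjusted together. Counts were fitted with edgeR 4.0.16 (quasi-likelihood, TMM, at least 10 counts in at least 4 libraries, or in 3 of the 6 libraries outside the screen). All tests were two-sided, with Benjamini-Hochberg adjustment and a threshold of 0.05, and the scripts were tested on simulated data. Named genes were the 5 largest called rises and falls per chemical, the 3 largest differences in each direction per pair, up to 4 called members per list, and the genes named by the study; a few single genes of the lists were chosen after their values were seen. Gene positions come from a GENCODE annotation of mm9, and promoters from RefSeq. Alternatives were relative log expression size factors, DESeq2 1.42.0, filters, thresholds, fits and left-out libraries. In a table of fenamidone with sulforaphane, 6 columns share a header and were not used, so the planned comparison was not run. A few genes of the lists are not reported here by name.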

Additional observations from a re-analysis of the deposited data

Results flagged for a closer look

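Values that lay far from the other 3 libraries of their group by Dixon's test were found in 12 of 46 tests of genes and marker sums. The tests share the same count libraries and some genes, so their number is not compared with a chance rate. Of these 12, 11 concerned library 1. In vehicle library 1, Acta2 (80.2 CPM), Hmox1 (40.7 CPM) and Gfap (151 CPM) were high and Syt1 (787 CPM) was low. In the same library summed astrocyte markers (1472.9 CPM), oligodendrocyte lineage markers (220 CPM) and endothelial and mural markers (26.3 CPM) were high and GABAergic interneuron markers (691 CPM) low. In pyraclostrobin library 1, summed astrocyte markers were high (4435.1 CPM), and GABAergic interneuron markers (152 CPM) and Grik1 (1.18 CPM) were low. The remaining value was Hkdc1 in pyraclostrobin library 2, at 7.51 CPM where the other 3 pyraclostrobin libraries had 0.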

How the results depend on the processing

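At an adjusted p under 0.01, famoxadone changed 857 genes, fenamidone 1331, pyraclostrobin 708 and trifloxystrobin 736 against vehicle, the count experiment gave 2631, and the pairs gave 199 (azoxystrobin and pyraclostrobin), 53, 97 and 100 (cyazofamid against famoxadone, fenamidone and trifloxystrobin), 7 (famoxadone and fenamidone) and 10 (famoxadone and trifloxystrobin). With each pair adjusted on its own, azoxystrobin and pyraclostrobin differed in 703 genes, famoxadone and fenamidone in 5, famoxadone and trifloxystrobin in 10, and fenamidone and trifloxystrobin in 4. With the spread taken over all libraries of the screen, cyazofamid changed 1 gene, fluoxastrobin 12, and famoxadone and fenamidone differed in 17. Among the 5121 variably expressed genes only, the numbers were 1 for azoxystrobin, 206 for famoxadone, 330 for fenamidone, 8 for fluoxastrobin, 117 for pyraclostrobin and 132 for trifloxystrobin, and in the pairs 26 (azoxystrobin and pyraclostrobin), 5, 12 and 10 (cyazofamid against famoxadone, fenamidone and trifloxystrobin), 1 (famoxadone and fenamidone), 5 (famoxadone and trifloxystrobin) and 4 (fenamidone and trifloxystrobin). Fewer genes are tested there, and the cause of the other changes was not tested.

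Leaving out 1 library gave 105 to 928 genes for famoxadone and 560 to 1463 for fenamidone, and in the pairs 174 to 371 (azoxystrobin and pyraclostrobin), 24 to 214 (cyazofamid and famoxadone), 84 to 296 (cyazofamid and fenamidone), 6 to 83 (famoxadone and fenamidone), 12 to 43 (famoxadone and trifloxystrobin) and 7 to 18 (fenamidone and trifloxystrobin). The count experiment gave 3248 to 5760. It gave 4317 with size factors by relative log expression, 4877 with no filter on low counts and 4812 with DESeq2. Of called genes 52.9% were higher, and 47.9% with no filter. With a replicate block on the library number it gave 4804. The paper speaks of matched vehicle controls but names no pairs. The shared numbers were not taken as pairs, since 1 of 4 correlations was not above 0.1 and the labels give the numbers no meaning. The correlations of deviations of same-numbered libraries were 0.383, 0.142, -0.00893 and 0.276 over 8989 genes. Of the 4 libraries, 2 correlated best with their own number, so whether the libraries were matched is not settled. No paired analysis was possible because the columns carry no usable number for the fenamidone and sulforaphane table, which was not run, and its alternatives were not run either.

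With the pyraclostrobin genes chosen at 0.01, an alternative added after seeing the data, the difference of medians was 0.642 in famoxadone library 2, 0.838 in fenamidone library 2, 0.755 in pyraclostrobin and 0.71 in trifloxystrobin. The counts of list genes and of complex I pairs were also rerun after seeing the data. Of 6064 values of single genes under alternatives, 5183 kept direction and side of the threshold, 880 kept direction but lost the call, and 1 reversed: Olig1 with fenamidone was -0.018 without its library 2 and 1.19 without its library 1. The depth of the screen libraries is unknown, and single libraries limit 4 of the 7 chemicals.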
